A study of Mus musculus with 2 samples.

Results

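Interferon response and antiviral genes were compared between the lungs of irradiated and nonirradiated mice. The members are genes whose symbol names an interferon alpha, an interferon receptor chain, a STAT or IRF factor, a SOCS protein or a known antiviral protein, matched by a fixed pattern of symbols. They numbered 72 of the 19049 genes that carry a single symbol in the authors' full sheet. By role they comprised 12 ligands, 4 receptor chains, 13 transcription factors, 6 nucleic acid sensors, 31 effectors, 4 feedback inhibitors and 2 IRF2-binding proteins, which match by name and are not IRFs. The mice were male C57BL/6, an inbred strain prone to lung fibrosis after chest irradiation. In the irradiated group the chest received gamma rays once, at 0.81 Gy/min, when the animals were 7 weeks old, and lungs were taken 25 weeks later. The irradiated mice are labelled as overexpressing α-smooth muscle actin, a marker of myofibroblasts. Nonirradiated mice, also labelled 25 weeks, served as the negative control. The sources used here give neither the total dose nor the number of mice behind an array.

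A single array of whole lung RNA stands for each group, with values on the log2 scale after RMA, a procedure that puts both arrays on a common distribution. Replicates are lacking, so no test was possible, and all differences are irradiated minus nonirradiated values of these 2 arrays. A bright gene is one whose larger value reached its array's median, 6.85 for nonirradiated and 6.89 for irradiated lung. All 18 measured markers of lung epithelium were bright, and 17 of them were lower in the irradiated array, with a median difference of -0.21. Markers of adipocytes (median 0.94 over 12 genes) and heart muscle (0.73 over 15) were higher there, and markers of neutrophils were higher in 7 cases and lower in 7. In whole tissue, fewer cells of a type and less RNA per cell cannot be told apart.

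Interferons are secreted proteins that warn cells of viruses and damage. Type I interferons, among them the interferon alphas, bind the receptor chains IFNAR1 and IFNAR2, and activate a complex with STAT2 and IRF9 that binds the interferon-stimulated response element (ISRE) before its target genes. Interferon gamma, made mainly by T and NK cells, binds IFNGR1 and IFNGR2, and acts on its target genes through gamma-activated sites (GAS). The targets include sensors of foreign RNA and DNA, proteins that block viral entry or replication, and inhibitors that end the signal.

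Some promoters that carry the element are shown first, because paralogs with the same letters had differences of opposite sign. Those of Ifit1, Ifit3, Oas1a and Oas1g were each smaller than the within-gene SD given below. In RefSeq promoter windows (GRCm38.p6, 250 bases before to 50 after the gene start), the core of the ISRE was searched on both strands as GAAA, any 2 bases and GAAA. Capitals mark each match, which begins and ends with TTTC where it lies on the other strand. Where matches overlap, the capitals run on.
Ifit1, chr19:34640773-34640825, plus strand: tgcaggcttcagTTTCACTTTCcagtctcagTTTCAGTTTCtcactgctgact
Ifit3, chr19:34583361-34583428, plus strand: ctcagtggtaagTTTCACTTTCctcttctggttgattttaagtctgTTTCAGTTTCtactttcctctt
Isg15, chr4:156200863-156200908, minus strand: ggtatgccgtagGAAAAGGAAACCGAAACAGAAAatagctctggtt
Ifi205, chr1:174031868-174031901, minus strand: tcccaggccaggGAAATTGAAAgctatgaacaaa
Oas1a, chr5:120907526-120907557, minus strand: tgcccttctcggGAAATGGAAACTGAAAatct
Oas1g, chr5:120887614-120887643, minus strand: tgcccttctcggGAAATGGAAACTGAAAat
Ifna14, chr4:88571942-88572048, minus strand: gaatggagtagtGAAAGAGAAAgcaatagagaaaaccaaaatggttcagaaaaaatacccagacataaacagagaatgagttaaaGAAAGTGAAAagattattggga
The Ifit1 and Ifit3 windows hold 2 matches each and the Isg15 window 3 overlapping ones. Only matches before the gene start are shown, and the Ifi205 window holds another after it. The stretches printed for Oas1a and Oas1g share their first 30 bases.

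Of the 72 members, 43 were higher and 29 lower in the irradiated array, with a median log2 difference of 0.04. Over all genes 45.1% were higher and 53.3% lower, and the median was -0.02. At least 1.5-fold higher were 3 members, against 2.07% of all genes, and none was at least 1.5-fold lower, against 1.2% of all genes. These 3 were the ligand Ifna14, the sensor Ifi205 and the effector Oas1f. Ifna14 was 1.53-fold higher, Ifi205 1.51-fold higher and Oas1f, not bright in either array, at the limit itself. With each array centred on its own median, a shift of 0.03, their differences were 0.58, 0.56 and 0.55, and none reached 1.5-fold. This centring also moved the median of all genes, from -0.02 to -0.06. With the lowess trend over level removed, Oas1f alone was below 1.5-fold, at 0.56. At 1.2-fold, 14 members were higher and 5 lower, against 11.8% and 13.9% of all genes. No member reached 2-fold, against 0.325% of all genes higher and 0.0787% lower. Of the members, 55 were bright in at least 1 array, and 33 of these were higher and 22 lower, against 40.3% and 59.2% of all bright genes. The other 17 were dim in both arrays.

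**Figure D1:**
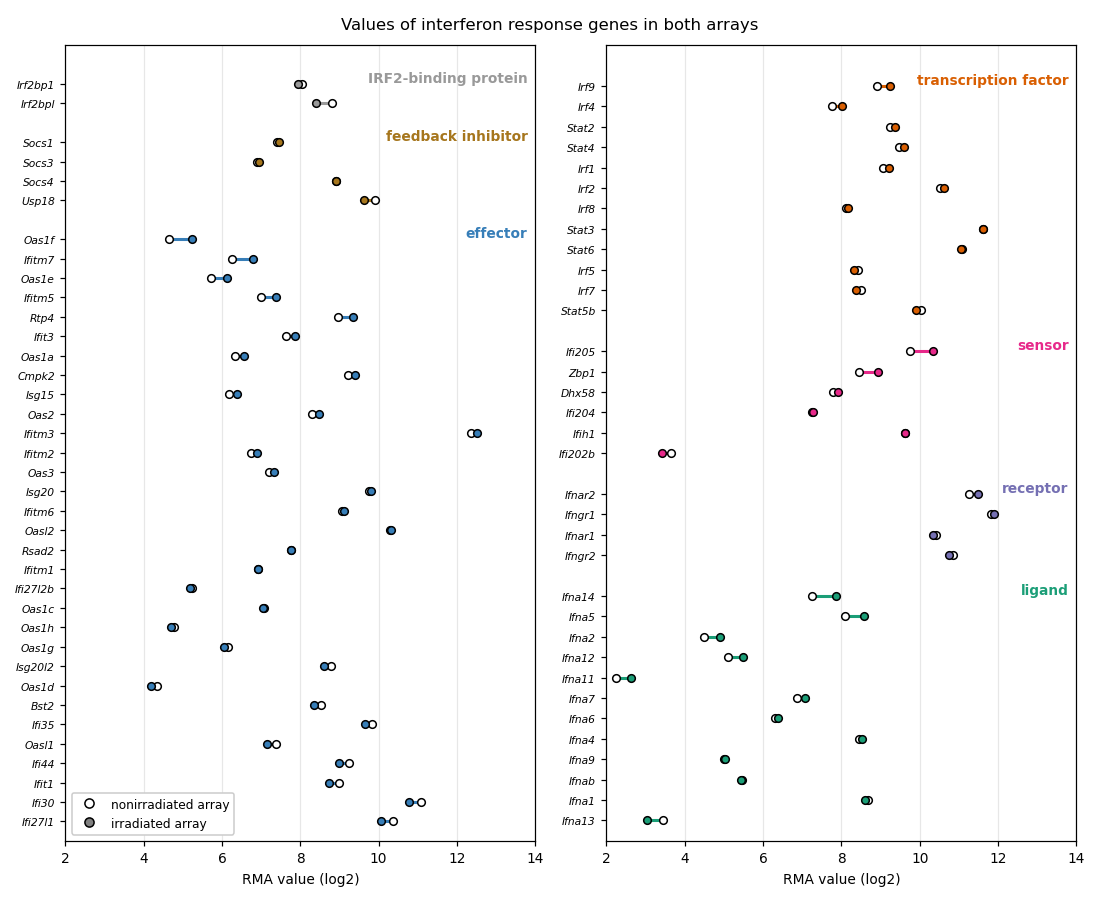
RMA value (log2, horizontal axis) of 71 of the 72 genes in the nonirradiated array (open circle) and the irradiated array (filled circle), grouped by role and ordered by difference. The pairs lie close together, and the longest lines belong to Ifna14, Ifi205, Oas1f, Ifitm7 and Zbp1, all higher in the irradiated array.

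A scale of spread was taken from control rows and from genes with several rows, since no array was repeated. Rows of 1 gene are different transcript clusters, for Irf8 and Socs3 on opposite strands, and are not repeats of a measurement. Differences of rows of the same bright gene had a pooled SD of 0.28 over 948 rows of 411 genes. Control rows had an SD of 0.14 over 18 bacterial hybridisation controls, 0.24 over 92 ERCC spikes and 0.31 over 39 poly-A spikes. The poly-A spikes had a median of 7.01 in the nonirradiated array and 6.37 in the irradiated one, and the ERCC spikes 4.64 and 4.47. The 3 members past 1.5-fold were also those beyond 2 of these within-gene SDs, a limit of 0.57 that 2.27% of all genes passed upward and 1.43% downward. The within-gene SD comes from bright genes, whereas Oas1f was not bright. None of these SDs covers the spread between animals.

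The 12 interferon alpha genes, the ligands, lie together on chromosome 4 (88571229 to 88850656, GRCm38). In the irradiated array 9 were higher and 3 lower, with a median of 0.15, and only 5 were bright. Ifna14 (transcript cluster 17427073, 88571229 to 88571798, minus strand) read 7.24 without irradiation and 7.86 after it, and was the ligand with the largest difference. Ifna5 read 8.09 and 8.58. The dim Ifna2 read 4.48 and 4.91, and the dim Ifna12 5.10 and 5.49. At the other end, Ifna13 differed by -0.42, from 3.44 to 3.02, Ifna1 by -0.08, and Ifnab by -0.02. Values of Ifna13 and Ifna11 (2.25 and 2.62) lay below the median of antigenomic background rows, which was 4.77 in the nonirradiated array and 4.59 in the other. The remaining ligands Ifna4, Ifna6, Ifna7 and Ifna9 differed by 0.04 to 0.20. These genes are near copies of each other, their clusters can share signal, and 4 of them are annotated as cross-hybridising, so a difference of 1 subtype is uncertain. Plasmacytoid dendritic cells are the main blood-borne source of interferon alpha. Of 12 listed markers of these cells 10 were measured, Siglech and Ccr9 not among them. Of the 10, 9 were higher, against 45.1% of all genes, and none reached 1.5-fold. Their median was 0.20 and their mean values 8.31 and 8.47. The marker Irf8, counted among the 9, is itself a member, and its row on the strand of the gene was equal in both arrays, as described below. The part of these cells in the ligand values was not tested.

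The 4 receptor chains were bright and differed little. Ifnar2, the chain that binds type I interferon first, read 11.26 and 11.48, a difference of 0.21. Its partner Ifnar1 read 10.42 and 10.35. The ligand-binding chain of the interferon gamma receptor, Ifngr1, read 11.82 and 11.90, and the signalling chain Ifngr2 read 10.86 and 10.75. The 2 chains of each receptor thus differed in opposite directions, all by less than 1 within-gene SD.

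All 13 transcription factors were bright, and none reached 1.5-fold. Of them 8 were higher and 5 lower, with a median of 0.05. Irf9, the DNA-binding subunit of the ISRE-binding complex (GRCm38 chromosome 14, plus strand, 55603571 to 55610030), differed most, at 8.90 and 9.23. Stat2, which recruits the activation machinery to the same complex, read 9.23 and 9.38. Irf7, which amplifies interferon alpha production, read 8.50 and 8.38, so it differed in the other direction from Irf9 and Stat2. Irf1, an early target of interferon gamma, read 9.07 and 9.20, and its antagonist Irf2 read 10.51 and 10.63.

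Several factors are better known from a cell type or another cytokine. Irf4, a factor of lymphocytes and plasma cells, read 7.76 and 8.02, and Stat4, which relays interleukin 12 in T and NK cells, 9.47 and 9.60. Of 21 markers of T and NK cells 15 were higher, against 45.1% of all genes, with a median of 0.12 and mean values of 7.98 and 8.12. Irf5, prominent in macrophages, read 8.43 and 8.32. Of 17 markers of macrophages and monocytes 12 were lower, against 53.3% of all genes, with a median of -0.13 and mean values of 9.27 and 9.13. The part of these cell types in the factor values was not tested. Stat3, which relays interleukin 6, read 11.62 in both arrays, and Stat6, which relays interleukin 4, 11.09 and 11.05. Stat5b, which relays growth hormone, read 10.04 and 9.91.

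Irf8, a factor of dendritic cells and other myeloid cells, has 2 rows. The row on the strand of the gene read 9.70 in both arrays, equal to every decimal, as did 635 of the 33793 rows of the main category. The other row lies on the opposite strand, is annotated as cross-hybridising, and read 6.53 and 6.63, so the average difference of 0.05 comes from that row alone.

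**Figure D2:**
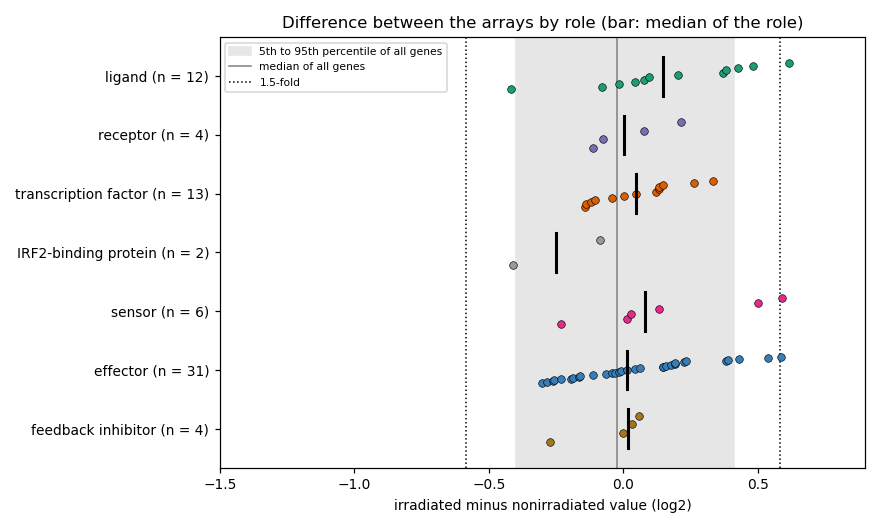
Irradiated minus nonirradiated value (log2, horizontal axis) of each member by role; points are genes, black bars the role's median, the grey band the 5th to 95th percentile of all 19049 genes and dotted lines 1.5-fold. Medians of the roles other than the IRF2-binding proteins lie between 0.00 and 0.15, and the points past 1.5-fold are 1 ligand, 1 sensor and 1 effector.

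Among the 6 sensors, 5 were higher, with a median of 0.08. Zbp1, which recognises Z-form nucleic acids and can trigger cell death (GRCm38 chromosome 2, minus strand, 173206612 to 173218923), was 1.41-fold higher, at 8.44 and 8.94. The RIG-I-like receptor Ifih1, which senses long double-stranded RNA, read 9.62 and 9.63. Dhx58, a regulator of the same receptor family, read 7.78 and 7.91. The other sensors belong to the PYHIN family, nuclear and cytosolic proteins of which several bind DNA, and lie on chromosome 1. Ifi205 (cluster 17230111, GRCm38, minus strand, 174011998 to 174031755) read 9.75 and 10.34, while its relative Ifi204 read 7.24 and 7.27. Ifi202b, known to be hardly expressed in C57BL/6 mice, read 3.65 and 3.42, below the background rows in both arrays. The cluster of Ifi205 has 10 probes and that of Ifi204 has 11, and related genes of this family can share signal.

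Effectors formed the largest role, and 16 were higher and 15 lower, with a median of 0.02. Oas1f (cluster 17441768, GRCm38 chromosome 5, plus strand, 120847367 to 120857986) had the largest difference, but both its values were dim, 4.65 and 5.23. The nonirradiated value lay below the median of the background rows in that array, 4.77. It belongs to the OAS family, whose active enzymes sense double-stranded RNA and switch on the RNA-cutting enzyme RNase L. Of the 7 OAS1 genes, neighbours on chromosome 5, 3 were higher and 4 lower, and 1 was bright, Oas1c, at 7.08 and 7.04. The dim Oas1e read 5.71 and 6.14, whereas Oas1d differed by -0.16 with values below the background rows. Oas1a and Oas1g, whose promoter stretches are printed above, differed by 0.22 and -0.11. Both genes were dim, and both differences were smaller than 1 within-gene SD. The bright relatives Oas2 and Oas3 differed by 0.18 and 0.15, Oasl2 by 0.02 and Oasl1, known in mice to curb Irf7, by -0.23.

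IFITM proteins sit in membranes and block the entry of viruses. Of 6 genes 5 were higher, with a median of 0.16. Ifitm7, on chromosome 16 apart from the others, read 6.24 and 6.78, dim in both arrays and on a cluster of 10 probes. Ifitm5, known from bone, read 6.99 and 7.38, and Ifitm3, the best studied antiviral member, read 12.35 and 12.51. The differences of Ifitm1, Ifitm2 and Ifitm6 ran from -0.02 to 0.15.

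Several classical targets of type I interferon were lower in the irradiated array. Ifit1, which binds viral RNA lacking a host-type cap, read 8.99 and 8.73. Its neighbour Ifit3 read 7.64 and 7.88, on a cross-hybridising cluster of 8 probes. The paired ISRE letters are present before both of these genes, and their differences had opposite signs. Ifi44 read 9.23 and 8.98, Ifi35 9.84 and 9.65, and Bst2, the tetherin that holds new virus particles on the cell surface, 8.52 and 8.34. Rsad2, viperin, which makes a chain-ending nucleotide, read 7.77 and 7.76, and Isg15, a ubiquitin-like modifier, was dim at 6.18 and 6.38. Rtp4, a chaperone of membrane receptors induced by interferon, was higher, at 8.97 and 9.35, and Cmpk2, a mitochondrial nucleotide kinase encoded beside Rsad2, read 9.21 and 9.40.

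The lowest differences among effectors were those of Ifi27l1, from 10.37 to 10.07, and of Ifi30, from 11.07 to 10.79. Ifi30 encodes a lysosomal thiol reductase of antigen-presenting cells, and the macrophage markers given above were lower in the same array, a relation that was not tested. The effectors Isg20, an exonuclease, and Isg20l2, its nucleolar relative, differed by 0.06 and -0.16. The remaining Ifi27l2b and Oas1h were dim and differed by -0.03 and -0.06.

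The 4 feedback inhibitors were bright, and 3 were higher, Socs4 by only 0.00017, and 1 lower. Usp18, which strips ISG15 from proteins and blocks IFNAR2 signalling (GRCm38 chromosome 6, plus strand, 121245906 to 121270917), was 1.21-fold lower, at 9.90 and 9.62. Socs1, an inhibitor of JAK kinases induced by interferon gamma, read 7.40 and 7.46, and Socs4 read 8.90 in both. Socs3 has a row on its own strand, which read 7.91 and 7.98, and a cross-hybridising row on the opposite strand, equal at 5.89 in both arrays. The 2 IRF2-binding proteins were lower: Irf2bpl differed by -0.41, from 8.80 to 8.39, and Irf2bp1 by -0.09.

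**Figure D3:**
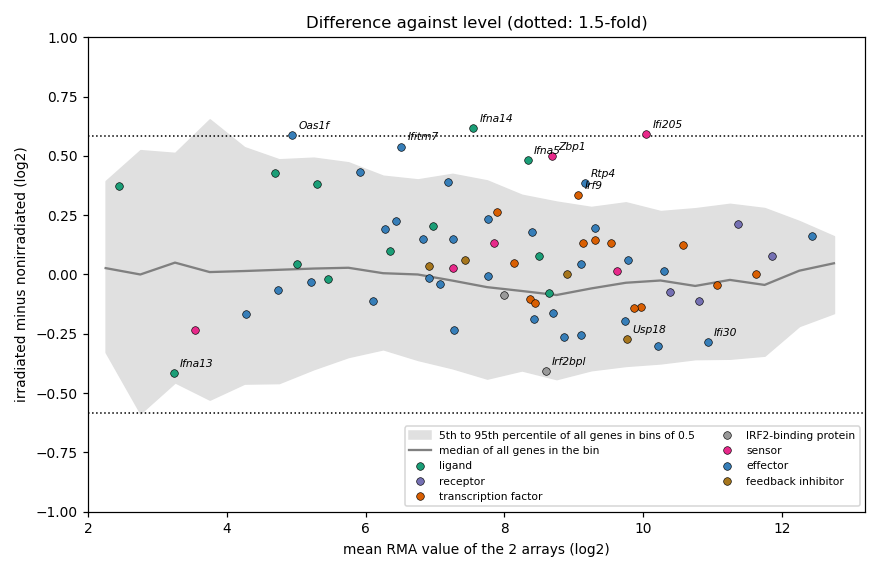
Irradiated minus nonirradiated value (log2, vertical axis) against the mean of both arrays (log2, horizontal axis); coloured points are members by role, the grey band is the 5th to 95th percentile of all genes in level bins of 0.5, the line their median, and dotted lines mark 1.5-fold. Above the band of their own level lie 8 members (Ifna14, Ifi205, Oas1f, Ifitm7, Zbp1, Ifna5, Rtp4 and Irf9), and none lies below it.

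The plot of difference against level sets each member beside genes of like value. The 8 members above the 95th percentile of their level came from 4 roles, and 64 lay within the band. Probe number went with the differences: the 19 members on fewer than 15 probes had a median of 0.20, and the 53 on more had a median of 0.01. Over all genes these medians were 0.03 and -0.03. Of the 8 genes above the band, Zbp1, Rtp4, Irf9 and Oas1f rest on 18 to 24 probes and the others on 8 to 11. The part of probe number in the differences was not tested.

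A list of 23 measured core targets of type I interferon, all of them members, had a median of 0.13. In it 14 genes were higher and 9 lower, against 45.1% and 53.3% of all genes. None reached 1.5-fold. Zbp1, Rtp4 and Irf9 had the largest positive differences in it, and Usp18, Ifit1 and Ifi44 the largest negative ones. The 20 bright genes of the list had a median of 0.07. The other 49 members had a median of 0.04, and 59.2% of them were higher, against 60.9% of the core list. All 3 members past 1.5-fold were among these other members.

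Genes of the pathway outside the member rule were described for comparison. Among 27 genes of ligands, kinases, sensors and adaptors, 15 were higher and 12 lower, with a median of 0.08 and none at 1.5-fold. The largest differences among the bright ones were those of Ifnlr1, the interferon lambda receptor of epithelia, at -0.36, the interferon lambda Ifnl2 at 0.34, the phosphatase Ptpn2 at 0.23 and the interferon lambda Ifnl3 at 0.20. The genes of interferon gamma and interferon beta, Ifng and Ifnb1, named after their values were seen, were dim in both arrays and differed by -0.07 and -0.53. Of 31 other interferon-stimulated genes 22 were higher, against 45.1% of all genes, with a median of 0.11. At least 1.5-fold higher were 3, against 2.07% of all genes. These were the guanylate-binding protein Gbp7 by 0.76, the tripartite motif gene Trim30a by 0.71 and Eif2ak2, the RNA-activated kinase PKR, by 0.64. Gbp2 differed by 0.49.

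Genes known as targets of interferon gamma had the highest median of these 3 lists, 0.25 over the 19 measured of 32 listed. Of these 13 were higher and 6 lower, and 5 were at least 1.5-fold higher, against 2.07% of all genes. The lower ones, named after their values were seen, were Nos2 (-0.30), the dim Gbp6 (-0.12), Psmb10 (-0.10), Tap2 (-0.09), Psmb8 (-0.07) and Tapbp (-0.01). The bright genes with the largest differences are given next. Gbp4, a guanylate-binding protein, was 2.44-fold higher, reading 8.57 and 9.85, and the chemokine Cxcl9 read 7.80 and 8.97. The immunity-related GTPases Irgm2 and Igtp were 1.90-fold and 1.86-fold higher. Gbp2 and Gbp3, the latter named only for this overlap, stand in this list and in the one before it. Irf1, Socs1 and Ifi30, examples of members that share this inducer, differed by 0.13, 0.06 and -0.28. The members were not sorted by inducer, and others, such as Zbp1 at 0.50 and Irf9 at 0.34, may share it. The difference between the lists was not tested.

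**Figure D4:**
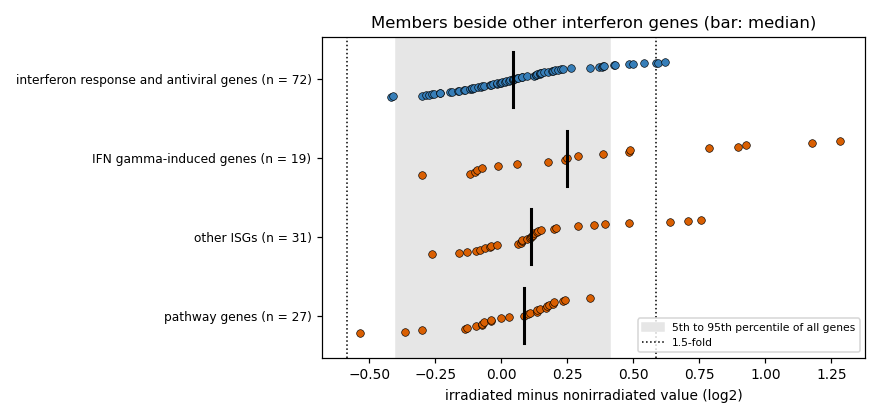
Irradiated minus nonirradiated value (log2, horizontal axis) of the 72 members (blue) and of 3 lists of interferon genes outside the member rule (orange); points are genes, black bars medians, the grey band the 5th to 95th percentile of all genes and dotted lines 1.5-fold. In the list of interferon gamma targets 5 of 19 points are at least 1.5-fold higher, against 3 of the 72 members and 2.07% of all genes.

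Promoter windows were available for 60 members. Those without a window, among them Zbp1, Rtp4 and Usp18 (differences of 0.50, 0.38 and -0.27), are left out of what follows. The core ISRE letters were present in the windows of 27 of them, 45.0%, against 4.03% of the 12768 measured genes with a window and 3.44% of all 32851 windows. The GAS letters TTCNNNGAA, which read the same on both strands, were present in 21 of the 60 members, against 8.92% of measured genes and 8.30% of all windows, and 10 members held both motifs. By role, the ISRE letters were found in 10 of 11 ligands, 11 of 25 effectors, 2 of 3 sensors, 3 of 12 transcription factors and 1 of 3 feedback inhibitors, and in none of the 4 receptor chains or 2 IRF2-binding proteins. Since many members are known for induction through this element, the share itself is no finding about irradiation. Members with the letters had a median difference of 0.13, with 20 of 27 higher, and members without them -0.02, with 16 of 33 higher. Leaving out the ligands, whose promoters are near copies, the medians were 0.13 over 17 and -0.01 over 32. Over all genes with a window, the medians were 0.00 for the 514 with the letters and -0.03 for the 12254 without. The shares of these genes that were higher were 49.4% and 43.1%. The members without the letters include core type I targets such as Irf9 and Ifi44, so the split does not part interferon targets from other genes.

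A longer motif, AGTTTC, any 2 bases and TTTC, which always contains the shorter one on the other strand, was found in 7 members, whose median was -0.04. The 49 measured genes with it had a median of 0.10, with 28 higher and 20 lower, and those without it -0.03. For the GAS letters the medians were 0.04 with and 0.02 without. Among members with ISRE letters, Ifi205 differed by 0.59, whereas Bst2 and Ifit1 differed by -0.19 and -0.26. A match is a description of letters in this window and not evidence of binding.

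**Figure D5:**
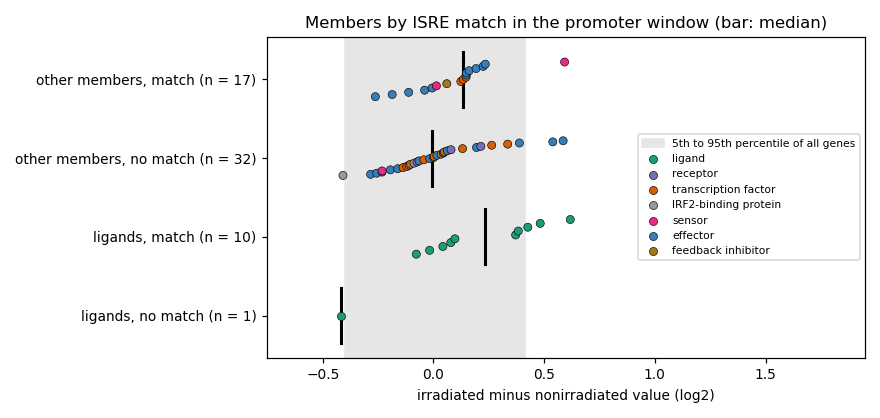
Irradiated minus nonirradiated value (log2, horizontal axis) of the 60 members with a promoter window, split by a match to the ISRE letters and by ligands against other members; colours give the role, black bars the median, and the grey band the 5th to 95th percentile of all genes. Members with a match spread from -0.26 to 0.62 and overlap widely with those without.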

How the data were processed

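Total lung RNA was extracted with Trizol and 300 ng was biotin-labelled for Affymetrix arrays, per the labels' protocols. The authors deposited log2 values. RMA and Expression Console 1.3.1 (Affymetrix) are the tools listed in the submitters' processing notes. Coordinates follow the deposited annotation, which cites GRCm38. The authors' deposited fold, a ratio of at least 1, is the antilog of the absolute log2 ratio. The sources used here do not name the array type.

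Of 41345 rows, 33793 belong to the main category and 20046 of these carry 1 symbol. Rows were averaged per symbol in Python 3.11.15 with pandas 2.3.3, giving 19049 genes. Of the 72 members, 2 had 2 rows each, and 71 matched the RefSeq table by symbol. The counting and motif steps were tested on simulated data. No p-value was computed, because each group has 1 array, and no replicate-based interval exists. The number of arrays limits the precision.

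The members and lists were chosen with earlier results of these data known. The values of 1 member are not reported here. Named were the other members, and in each of the 3 lists of interferon genes outside the rule the 4 bright genes with the largest absolute difference, while lists of cell types are given by counts and medians. Alternatives covered scaling, the lowess trend (span 0.3), brightness, rows per gene, cross-hybridising rows, the fold limit, roles and motifs.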

Additional observations from a re-analysis of the deposited data

How the results depend on the processing

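Under the alternatives run, the median of all members stayed between 0.01 and 0.08, that of the core type I targets between 0.07 and 0.17, and the share of members higher between 51.4% and 61.1%. The lowest median and share of all members came with median centring, under which the median of all genes was -0.056. The count of members at least 1.5-fold higher, 3 as reported, was 0 with median centring, 1 above the 75th percentile and 1 with rows of 15 or more probes, which was added after seeing the data. The last 2 tested fewer genes. At 2-fold it was 0, and at 1.2-fold 14 were higher and 5 lower. Medians near 0 changed sign. With median centring those of receptors, effectors and feedback inhibitors were -0.032, -0.019 and -0.017. Above the 75th percentile the effector and inhibitor medians were -0.073 and -0.14, and the sensor median was 0.50 over fewer genes. The effector median was -0.0063 both with a limit on the mean value and with 15 or more probes. The longer ISRE motif was present in 11.7% of members, with a median of -0.040, against 45.0% and 0.13 for the core letters. No paired analysis was possible because each group has 1 array, and for the same reason no replicate could be left out.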
